A study of Homo sapiens with 24 samples.

Results

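The 9 genes described here are those commonly followed in the cytostatic response to TGFβ, the growth arrest that this factor brings about in many epithelial cells. They are the 7 genes of the CDK inhibitors (CDKN1A, CDKN1B, CDKN1C, CDKN2A, CDKN2B, CDKN2C and CDKN2D), MYC and RGCC. They were chosen by name as 9 of the 34834 genes with transcripts in the tables, and their levels and the differences between the arms at each time were known when they were chosen. Those differences, and each arm's change from its own 0 h libraries, are therefore given here as descriptions, and where members past a threshold of the fit are counted, the count is a description too.

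The RNA came from SK-MES-1, an established human cell line labelled as squamous cell lung carcinoma. All cells, in both arms, had been starved of serum for 3 h. One arm then received 2 ng/ml TGFβ1 and the other was left untreated, and total RNA was taken at 0, 8, 24 and 48 h. Each arm and time holds 3 libraries, which the submitters call biological triplicates, so there are 8 groups and 24 libraries, all from this cell line. Its squamous label was checked on 10 marker genes: TP63, KRT17, SOX2, PKP1 and SERPINB5 were detected, while KRT5, KRT6A, KRT14, DSG3 and CALML3 averaged under 0.1 TPM.

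CDK inhibitors bind the cyclin-dependent kinases that drive the cell cycle. The Cip/Kip proteins p21 (CDKN1A), p27 (CDKN1B) and p57 (CDKN1C) bind complexes of cyclins with CDK2 and other kinases, and the INK4 proteins p16 (CDKN2A), p15 (CDKN2B), p18 (CDKN2C) and p19 (CDKN2D) bind CDK4 and CDK6. CDKN2A also encodes the unrelated protein ARF from another reading frame. In the textbook account of epithelial cells, SMAD complexes raise the transcription of CDKN1A and CDKN2B and lower that of MYC, a transcription factor that favours growth and holds both inhibitors down. RGCC, regulator of cell cycle, is a small protein that associates with CDK1 and responds to complement and TGFβ in several cell types.

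The promoters of 3 genes are shown because they belong to the member that was higher with TGFβ1, to the classical TGFβ target that was at or next to 0 in all libraries, and to the member with the largest difference. Each sequence is the 250 bases before the gene start given by RefSeq on GRCh38.p14, read 5′ to 3′ on the strand of the gene. Capitals mark GGGCGG, the core of the GC box bound by SP1 and related factors, and CAGAC, the short element bound by SMAD3 and SMAD4, each searched on both strands.
CDKN1A: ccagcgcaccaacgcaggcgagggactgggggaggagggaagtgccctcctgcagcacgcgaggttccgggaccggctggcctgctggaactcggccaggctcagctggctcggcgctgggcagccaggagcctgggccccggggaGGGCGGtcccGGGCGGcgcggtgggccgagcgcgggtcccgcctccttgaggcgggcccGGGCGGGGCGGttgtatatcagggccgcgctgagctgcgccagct
CDKN2B: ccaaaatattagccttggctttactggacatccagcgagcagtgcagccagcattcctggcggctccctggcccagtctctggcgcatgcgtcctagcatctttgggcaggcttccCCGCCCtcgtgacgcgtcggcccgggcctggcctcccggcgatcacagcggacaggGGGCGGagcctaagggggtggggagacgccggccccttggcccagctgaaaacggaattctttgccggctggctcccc
RGCC: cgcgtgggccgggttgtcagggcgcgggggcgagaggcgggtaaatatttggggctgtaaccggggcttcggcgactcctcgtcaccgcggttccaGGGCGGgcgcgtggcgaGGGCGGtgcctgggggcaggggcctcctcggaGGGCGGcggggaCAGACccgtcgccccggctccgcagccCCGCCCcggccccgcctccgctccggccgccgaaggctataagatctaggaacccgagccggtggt
The CDKN1A window is chr6:36678464-36678713 on the plus strand and lies inside the annotated gene, since longer annotated forms begin further upstream. The CDKN2B window is chr9:22009306-22009555 on the minus strand, and the RGCC window is chr13:41457300-41457549 on the plus strand. Both end at the base before the annotated gene. The CDKN1A window holds 4 matches to GGGCGG, the last pair overlapping by a base, the CDKN2B window holds 2 and the RGCC window 4. A match to CAGAC was found in the RGCC window alone of the 3, beginning 93 bases before the start. Among 35116 promoter windows of this length 42.6% hold GGGCGG and 38.0% hold CAGAC. Promoters of 7 of the 9 genes were in the table, and for all 7 at least 1 window holds GGGCGG. A window with CAGAC was found for 3 (CDKN2A, CDKN2C and RGCC). CDKN2A and CDKN2C each have more than 1 window, so these counts of genes are not comparable with the shares of windows. These matches are matches of letters and were not tested as binding sites.

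Library totals ran from 46613589 to 77964234 estimated counts with a median of 54120879, and 94.82 to 95.18% of each total fell on transcripts that could be assigned to a gene. Levels are given in TPM, the share of a library's transcripts that belongs to the gene, corrected for transcript length. Differences are log2 values of counts scaled to library size (CPM) from a limma voom fit over all 24 libraries, each with its standard error. At 0 h none of 17413 genes passed an adjusted p of 0.01 in limma, while 800 (4.59%) had an unadjusted p below 0.05, edgeR called 0 and DESeq2 8. Codes in the names of the libraries set apart 6 libraries each, with 0 and 8 h of an arm under 1 code and 24 and 48 h under another, so that code and arm cannot be told apart within a time. Changes of an arm from 0 h to 24 or 48 h cross codes, so time and code cannot be told apart in them either. The change of an arm difference from 0 to 8 h, or from 24 to 48 h, compares libraries within each code. Among markers of blood and endothelial cells, CD3E was at 0 and CDH5 and HBB averaged under 0.1 TPM, PTPRC averaged 1.37 to 2.01 TPM by group, and CD68, a lysosomal gene that other cells also express, 7.89 to 34.9 TPM. The group means of HBA1 and PECAM1 lay between 0.0513 and 3.42 TPM. Summed over 4 lung adenocarcinoma markers, the level stayed between 0.358 and 2.10 TPM in every library.

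**Figure D1:**
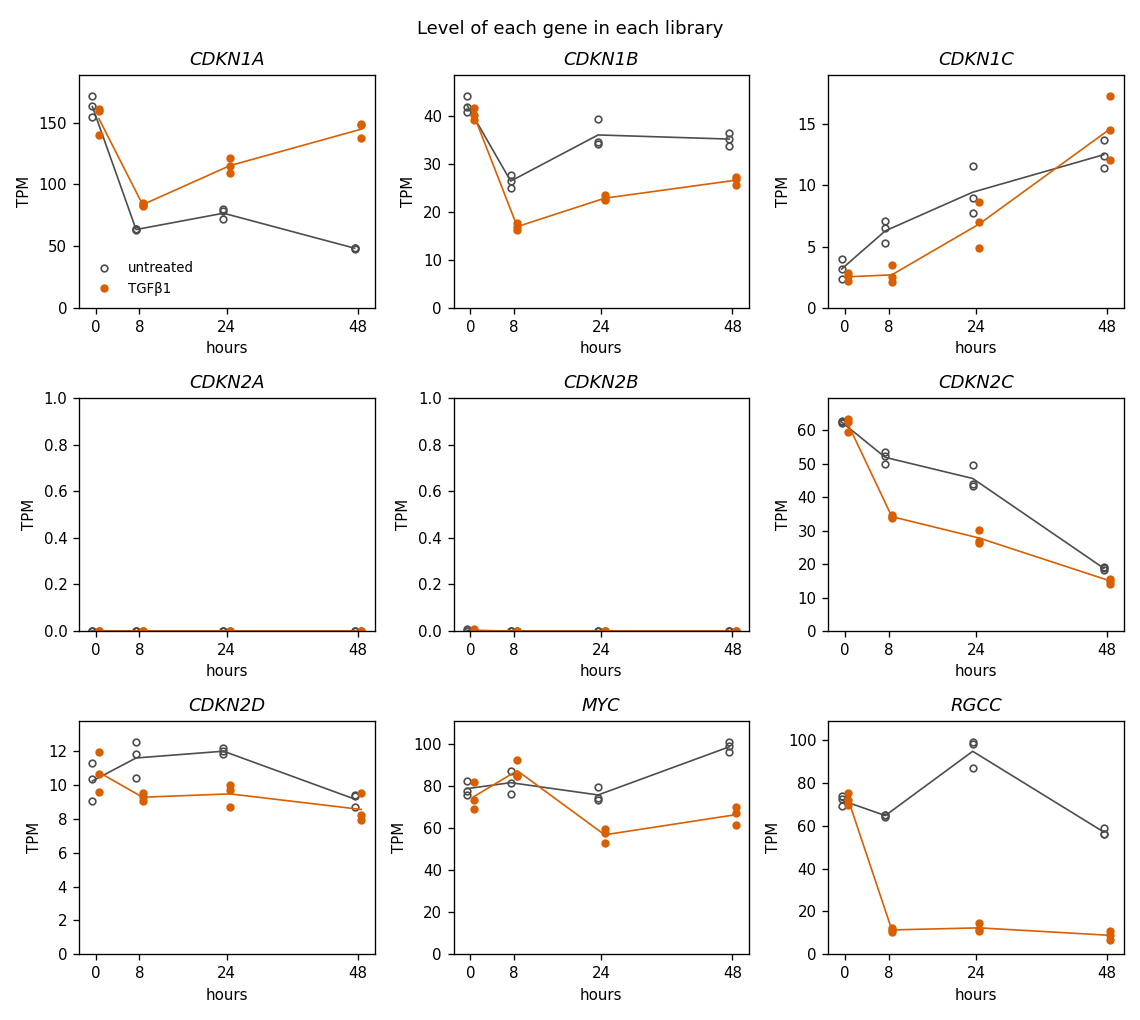
Level in TPM (vertical axes, from 0) against hours after the start of treatment for the 9 genes. Each point is a library (open, untreated; filled, TGFβ1), shifted slightly sideways, and lines join the means of 3 libraries. CDKN1A of the treated arm returned to 137 to 149 TPM at 48 h, RGCC stayed at or below 14.6 TPM in every treated library from 8 h on, and CDKN2A and CDKN2B lay on 0.

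CDKN1A (ENSG00000124762, chr6:36676460-36687337, plus strand), which encodes the kinase inhibitor p21, was the most abundant CDK inhibitor transcript and the member that was higher with TGFβ1 at 8, 24 and 48 h. In the untreated arm it measured 172, 154 and 164 TPM at 0 h, 63.6, 62.8 and 64.0 TPM at 8 h, 78.3, 71.8 and 80.0 TPM at 24 h, and 48.9, 48.7 and 47.5 TPM at 48 h. In the treated arm it measured 159, 139.7 and 161 TPM at 0 h, 82.8, 85.1 and 83.1 TPM at 8 h, 115, 109.5 and 121 TPM at 24 h, and 148.5, 149 and 137 TPM at 48 h. The arms overlapped at 0 h, and at every later time the 3 treated libraries lay above the 3 untreated ones. The log2 difference, treated minus untreated, was -0.06 ± 0.059 (SE) for 0 h, 0.455 ± 0.062 for 8 h, 0.62 ± 0.061 for 24 h and 1.61 ± 0.063 for 48 h, the last a 3.06-fold higher level. Scaled to 4 reference genes, of which 3 were themselves lower with TGFβ1, the 24 and 48 h values were 0.97 and 1.96. In no group after 0 h was the mean TPM above that of 0 h in the same arm. On the log2 scale the untreated cells differed from their 0 h libraries by -1.41 ± 0.061 after 8 h and -1.85 ± 0.062 after 48 h. The treated cells differed from theirs by -0.895 ± 0.060 after 8 h and -0.18 ± 0.059 after 48 h, and the last value became 0.37 with the reference genes. Ordered by mean level, the groups ran from untreated 0 h (163 ± 8.69 TPM, SD, n = 3) and treated 0 h (153 ± 11.8) through treated 48 h (145 ± 6.50), treated 24 h (115 ± 5.86), treated 8 h (83.6 ± 1.26), untreated 24 h (76.7 ± 4.32) and untreated 8 h (63.5 ± 0.611) to untreated 48 h (48.4 ± 0.719). Of these neighbours, untreated and treated 0 h overlapped, and so did treated 0 h and treated 48 h, and the others did not. From 24 to 48 h the difference between the arms grew by 0.99 ± 0.088.

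CDKN1B (ENSG00000111276, chr12:12685498-12722369, plus strand) encodes p27, an inhibitor abundant in resting cells, and was lower with TGFβ1 at 8, 24 and 48 h. The untreated libraries held 40.9, 44.2 and 41.9 TPM at 0 h, 25.1, 26.6 and 27.8 TPM at 8 h, 34.7, 39.4 and 34.2 TPM at 24 h, and 35.3, 33.9 and 36.5 TPM at 48 h. The treated libraries held 39.3, 41.6 and 40.2 TPM at 0 h, 16.9, 16.3 and 17.6 TPM at 8 h, 22.6, 23.5 and 22.5 TPM at 24 h, and 25.7, 26.9 and 27.3 TPM at 48 h. All 3 treated libraries were below all 3 untreated ones at each time after 0 h. Treated minus untreated, the log2 difference was -0.55 ± 0.039 for 8 h, -0.63 ± 0.038 for 24 h and -0.34 ± 0.038 for 48 h, and the last pair became -0.28 and 0.014 with the 4 reference genes. Both arms were lowest at 8 h, when the log2 change from their own 0 h was -0.73 ± 0.038 in untreated and -1.27 ± 0.039 in treated cells.

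CDKN1C (ENSG00000129757, chr11:2883213-2885775, minus strand) encodes p57, and its gene is imprinted. It was the member whose level was higher at 24 and 48 h than at 0 h in both arms, starting low with 90.0 to 176 estimated counts per untreated library at 0 h. The untreated libraries held 3.96, 2.36 and 3.18 TPM at 0 h, 7.05, 5.32 and 6.48 TPM at 8 h, 7.78, 8.995 and 11.5 TPM at 24 h, and 12.4, 13.7 and 11.4 TPM at 48 h. The treated libraries held 2.82, 2.58 and 2.21 TPM at 0 h, 3.48, 2.13 and 2.49 TPM at 8 h, 8.65, 4.89 and 7.002 TPM at 24 h, and 17.3, 14.5 and 12.1 TPM at 48 h. The arms were apart at 8 h and overlapped at 0, 24 and 48 h. In log2 terms the arms differed by -0.39 ± 0.34 (0 h), -1.24 ± 0.28 (8 h), -0.35 ± 0.23 (24 h) and 0.24 ± 0.20 (48 h). The last pair became 0.005 and 0.59 with the reference genes. From 0 to 8 h the arm difference changed by -0.85 ± 0.44, which did not pass (limma adjusted p = 0.278). After 48 h the log2 change from 0 h was 1.89 ± 0.27 in untreated and 2.52 ± 0.29 in treated cells.

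CDKN2A (ENSG00000147889, chr9:21967752-21995301, minus strand) and CDKN2B (ENSG00000147883, chr9:22002903-22009305, minus strand), the genes of p16 and p15, gave next to no reads. CDKN2A had 0 estimated counts in all 24 libraries, over its 14 transcripts in the tables. CDKN2B had 0 in 22 libraries and 1.00 estimated count in each of the other 2, replicate 2 of the untreated and of the treated 0 h group, at most 0.00804 TPM. Neither gene reached the minimum for testing, and a count of 0 allows up to 3 counts per library, 0.0385 to 0.0644 CPM at these depths, counting error only. That bound is for a single library, in which a lower level can go unseen. Over all 24 libraries together, CDKN2A had 0 and CDKN2B 2.0 of 1345648379 estimated counts. No fold change is given. Of the neighbours on chromosome 9, MTAP, an enzyme of methionine salvage, averaged 30.2 TPM in the untreated 0 h and 20.6 TPM in the treated 48 h libraries. These groups differ in treatment, time and code, so the pair does not compare the arms. DMRTA1, a transcription factor gene, averaged 0.115 to 0.440 TPM over the 8 groups. The F-test over the arm differences at 8, 24 and 48 h gave adjusted p values of 0.123 for MTAP and 0.248 for DMRTA1 in limma. The antisense transcript CDKN2B-AS1 was not analysed here.

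CDKN2C (ENSG00000123080, chr1:50960745-50974634, plus strand), the gene of p18, was the most abundant INK4 transcript and was lower in both arms with time. The untreated libraries held 62.8, 62.2 and 62.4 TPM at 0 h, 52.3, 53.5 and 49.8 TPM at 8 h, 49.6, 43.3 and 43.9 TPM at 24 h, and 18.3, 18.9 and 19.1 TPM at 48 h. The treated libraries held 62.4, 59.6 and 63.3 TPM at 0 h, 34.6, 34.1 and 33.9 TPM at 8 h, 30.1, 26.9 and 26.4 TPM at 24 h, and 14.2, 15.0 and 15.7 TPM at 48 h. Treated libraries were below untreated ones without overlap at 8, 24 and 48 h. The arms differed by -0.52 ± 0.069 (8 h), -0.685 ± 0.072 (24 h) and -0.26 ± 0.083 (48 h) on the log2 scale, and the last pair became -0.335 and 0.09 with the reference genes. From 24 to 48 h the difference changed by 0.43 ± 0.11. By 48 h the log2 change from 0 h was -1.91 ± 0.074 in untreated and -2.17 ± 0.077 in treated cells. The summed level of 11 proliferation markers was also lower at 48 h than at 0 h in both arms. In untreated libraries that sum lay at 1548 to 1634 TPM at 0 h and at 403 to 406 TPM at 48 h, and in treated libraries at 1495 to 1651 TPM and 331 to 358 TPM. At 8 h the sums of the arms were apart, at 1226 to 1257 TPM untreated and 974.5 to 1000 TPM treated, and so was CDKN2C. At 24 h the sums overlapped, at 796.4 to 842.2 TPM untreated and 759.5 to 842.5 TPM treated, while CDKN2C did not overlap. At 48 h both the sums and CDKN2C were apart. Whether proliferation had a part in the lower CDKN2C was not tested.

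CDKN2D (ENSG00000129355, chr19:10566460-10569059, minus strand), the gene of p19, varied least among the tested members. Its lowest library was at 7.92 TPM and its highest at 12.5 TPM, and the group means ran from 8.55 ± 0.85 TPM in treated cells at 48 h to 12.0 ± 0.173 TPM in untreated cells at 24 h. Its log2 difference was -0.28 ± 0.093 (8 h), -0.32 ± 0.096 (24 h) and -0.05 ± 0.10 (48 h), and with the reference genes the last pair became 0.03 and 0.30. The arms did not overlap at 8 and 24 h and overlapped at 0 and 48 h.

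**Figure D2:**
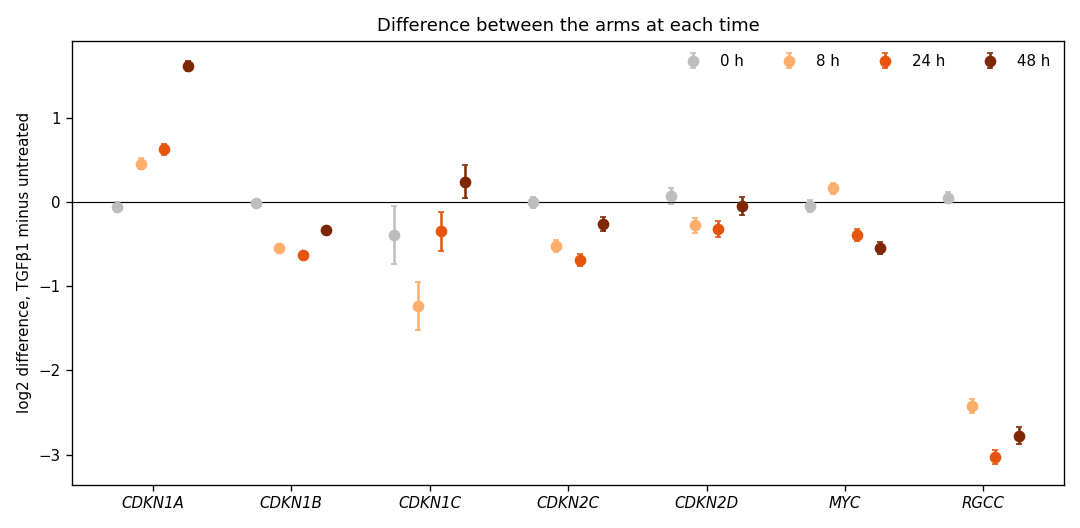
Log2 difference of TGFβ1-treated minus untreated libraries (vertical axis) for the 7 tested genes, at 0, 8, 24 and 48 h from light to dark, with 3 libraries per arm and time. Points are fitted values and bars are standard errors. CDKN1A alone lies above 0 at 8, 24 and 48 h, up to 1.61, and RGCC lies between -2.43 and -3.03 at those times.

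RGCC (ENSG00000102760, chr13:41457550-41470871, plus strand) had the largest difference of the 9 genes. The untreated libraries held 69.4, 73.8 and 72.6 TPM at 0 h, 65.0, 65.0 and 64.3 TPM at 8 h, 98.4, 99.0 and 87.1 TPM at 24 h, and 56.0, 56.3 and 58.9 TPM at 48 h. The treated libraries held 75.3, 72.2 and 69.7 TPM at 0 h, 11.5, 10.4 and 12.2 TPM at 8 h, 14.6, 11.7 and 10.8 TPM at 24 h, and 8.94, 6.72 and 10.8 TPM at 48 h. The arms overlapped at 0 h and then stood far apart, with the highest treated library after 0 h at 14.6 TPM and the lowest untreated one at 56.0 TPM. On the log2 scale the arms differed by 0.05 ± 0.066 (0 h), -2.43 ± 0.083 (8 h), -3.03 ± 0.085 (24 h) and -2.77 ± 0.099 (48 h), so that mean TPM in untreated cells was 5.70, 7.68 and 6.46 times that in treated cells at 8, 24 and 48 h. By the absolute size of its mean difference over these times RGCC ranked 111 among the 17413 genes. Ordered by level, untreated 24 h (94.8 ± 6.69 TPM) stood first, followed by treated 0 h (72.4 ± 2.83) and untreated 0 h (71.9 ± 2.27), which overlapped, untreated 8 h (64.8 ± 0.404), untreated 48 h (57.1 ± 1.60), treated 24 h (12.3 ± 1.98), treated 8 h (11.4 ± 0.897) and treated 48 h (8.83 ± 2.06). The last 3 overlapped with each other. In the treated arm the log2 change from 0 h was -2.67 ± 0.083 after 8 h, -2.72 ± 0.086 after 24 h and -3.28 ± 0.098 after 48 h. In the untreated arm it was -0.20 ± 0.065, 0.36 ± 0.065 and -0.46 ± 0.067 at the same times, and with the reference genes -0.28, 0.16 and -0.26. With the 4 reference genes the arm differences were -2.34, -2.68 and -2.425 at the 3 times.

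MYC (ENSG00000136997, chr8:127735434-127742951, plus strand) was lower with TGFβ1 at 24 and 48 h and had treated and untreated libraries that overlapped at 8 h. The untreated libraries held 77.8, 75.9 and 82.6 TPM at 0 h, 76.1, 81.6 and 87.3 TPM at 8 h, 73.6, 74.4 and 79.3 TPM at 24 h, and 99.1, 101 and 96.2 TPM at 48 h. The treated libraries held 73.6, 69.2 and 82.0 TPM at 0 h, 92.3, 84.9 and 84.9 TPM at 8 h, 59.4, 53.2 and 57.9 TPM at 24 h, and 67.4, 70.1 and 61.7 TPM at 48 h. The arms overlapped at 0 and 8 h, and the treated libraries lay below the untreated ones at 24 and 48 h. The log2 differences were 0.16 ± 0.069 (8 h), -0.39 ± 0.071 (24 h) and -0.545 ± 0.070 (48 h), and with the 4 reference genes they became 0.25, -0.04 and -0.195. Against 0 h of the same arm, the log2 change after 48 h was 0.24 ± 0.069 in untreated cells and -0.25 ± 0.071 in treated cells, which became 0.43 and 0.30 with the reference genes.

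Counted over the 7 tested members, 5 passed an adjusted p of 0.01 at 8 h, against 16.4% of all genes. Of these, 1 was higher, against 9.14% of genes, and 4 were lower, against 7.28%. At 24 h 5 passed, against 29.4%, with 1 higher (15.5%) and 4 lower (13.9%). At 48 h 4 passed, against 32.7%, with 1 higher (16.2%) and 3 lower (16.5%). With the 4 reference genes the members called were 2 higher and 4 lower at 8 h, MYC being called higher, 1 higher and 3 lower at 24 h, and 2 higher and 1 lower at 48 h. In the F-test over the 3 times all 7 passed, against 42.6%. The median log2 difference of the 7 was -0.52, -0.39 and -0.26 for the 3 times, beside -0.016, -0.015 and -0.013 over all genes, and the 48 h median of the 7 became 0.09 beside 0.336 with the reference genes. In TPM, 0 of the 7 stood apart between arms before treatment, against 6.98% of all genes. The arms stood apart for 6 after 8 h, against 47.5%, for 6 after 24 h, against 40.4%, and for 5 after 48 h, against 55.2%. Because the members were chosen on these differences, nothing is read from the counts. At 0 h 0 members were called by limma, edgeR or DESeq2, against 0.0% of genes in limma, and 0 had an unadjusted p below 0.05. For the changes within codes, 4 members (CDKN1A, CDKN1B, CDKN2C and RGCC) passed from 0 to 8 h, against 7.91% of genes, and 3 (CDKN1A, CDKN1B and CDKN2C) passed from 24 to 48 h, against 9.14%.

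**Figure D3:**
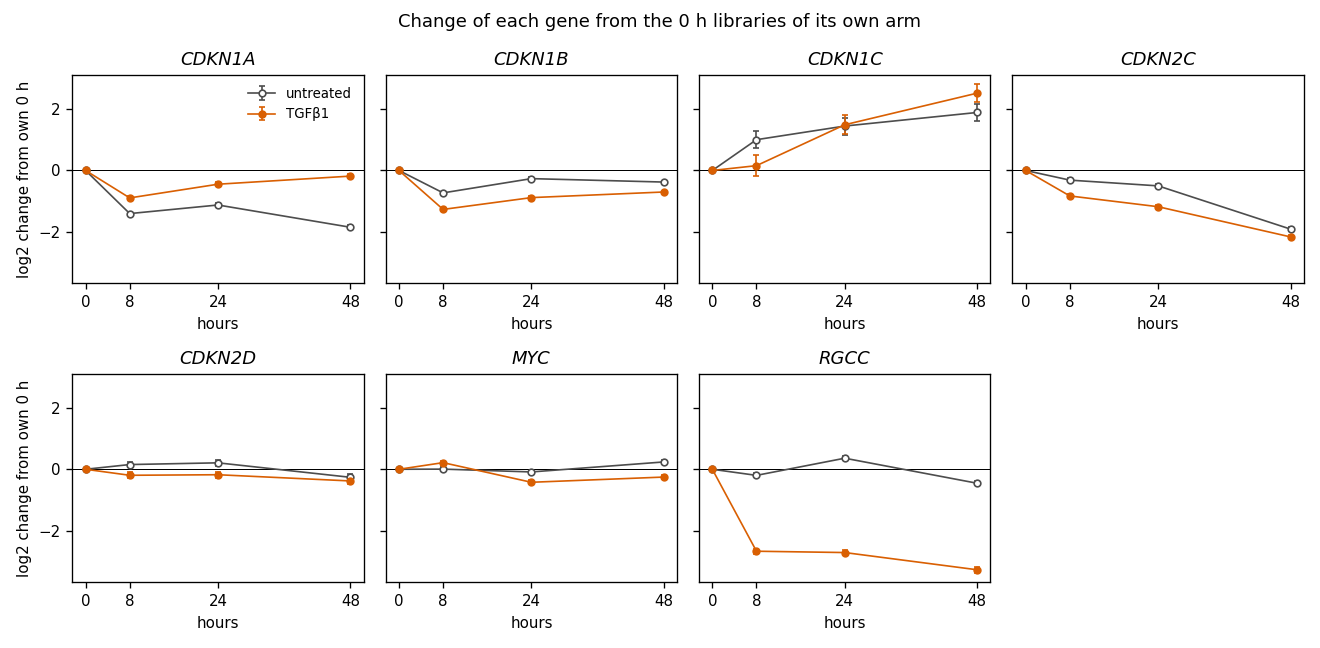
Log2 change from the 0 h libraries of the same arm (vertical axis) against hours for the 7 tested genes, open points untreated and filled points TGFβ1, each a fitted value with its standard error. Both arms of CDKN1A, CDKN1B and CDKN2C lie below 0 at every later time, both arms of CDKN1C above it, and the arms part by 8 h for RGCC.

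Against 0 h, untreated cells had 4 of the 7 members called after 8 h (26.0% of all genes), 5 after 24 h (47.6%) and 6 after 48 h (55.2%). Treated cells had 4 called after 8 h (33.9%), 6 after 24 h (47.1%) and 7 after 48 h (58.0%), the last falling to 4 without the first treated 0 h library or without the third treated 48 h library, when CDKN1A, CDKN2D and MYC were lost. These changes were among the values on which the members were chosen, so nothing is read from their counts either, and they share libraries with the arm differences. After 24 and 48 h the changes also compare libraries under different codes, so time and code cannot be told apart.

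Summed over the 7 CDK inhibitor genes, the level in untreated cells was 281 ± 8.86 TPM (SD, n = 3) before treatment, then 159.7 ± 1.07 TPM (8 h), 179.8 ± 3.68 TPM (24 h) and 124 ± 0.399 TPM (48 h). In treated cells the sums were 269 ± 13.6, 147 ± 0.566, 182 ± 7.67 and 209.6 ± 7.85 TPM. At 24 h the sums of the arms overlapped, at 176 to 182 TPM untreated and 174 to 187 TPM treated, while the share of CDKN1A in them did not. CDKN1A supplied 42.6 ± 1.62% of the untreated and 63.3 ± 1.47% of the treated sum at 24 h, and 39.0 ± 0.588% and 69.1 ± 0.683% at 48 h.

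**Figure D4:**
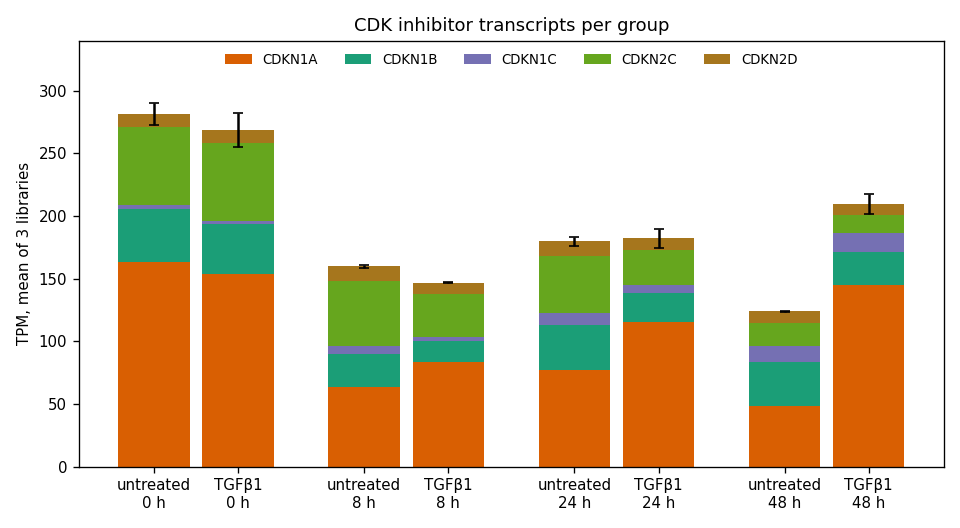
Stacked mean TPM (vertical axis, from 0) of the 5 detected CDK inhibitor genes in each group, untreated and TGFβ1 side by side at 0, 8, 24 and 48 h. Black bars are the SD of the summed TPM over 3 libraries. The summed level was 124 TPM in untreated and 209.6 TPM in treated cells at 48 h, most of the latter CDKN1A.

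Transcript forms of the members were tested for a change in their share of the gene, a measure the choice of members did not use. None of 23 forms of the 7 tested genes passed an adjusted p of 0.01 over the mean of 8, 24 and 48 h in limma's diffSplice, against 2.02% of 77448 forms, and 2 had an unadjusted p below 0.05. Both were forms of CDKN2C. CDKN2C-202 (1220 bases) moved by -0.385 on the log2 scale (adjusted p = 0.218), and CDKN2C-203 (2086 bases) by 0.33 (adjusted p = 0.246). CDKN2C-203 held 73.9 ± 3.38% of the gene's TPM in untreated and 81.4 ± 4.10% in treated cells at 48 h. A form of CDKN1A, CDKN1A-201, held 94.4 to 96.1% of the gene in the group means, and CDKN1B-201 held 94.2 to 97.9%. MYC was shared between MYC-205 (40.9 to 53.1%) and the pair MYC-202 and MYC-206, whose values are identical in the tables and were taken as 1 form (45.6 to 57.8%). Forms of CDKN1C varied between groups, with 53.1 to 74.8% in CDKN1C-201, 4.19 to 12.4% in CDKN1C-202 and 7.97 to 30.7% in CDKN1C-204 over the group means. CDKN2D was divided into CDKN2D-201 (66.7 to 76.0%) and CDKN2D-202 (24.0 to 33.3%), and RGCC into RGCC-201 (84.8 to 93.5%) and the short RGCC-202 of 243 bases (6.49 to 15.2%).

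The genes around the members were taken from 11 lists of pathway genes, 138 of which could be tested. By the F-test 88 of the 138 passed, against 42.6% of all genes, 35 with a mean difference above 0 and 53 below. For these genes, rose and fell refer to treated against untreated libraries at the same times, not to a change over time. An adjusted p given with such a gene is that of the F-test, not of the time or mean beside it. Which way genes move depends on the scaling, since 49.3% of all genes passing the F-test had a mean above 0 here, 31.5% with library totals and 87.7% with the 4 reference genes. Among 8 direct TGFβ targets and ID genes all 8 passed, 5 higher and 3 lower, a check that the treated arm responded. PMEPA1, an inhibitor of the pathway, rose by 4.11 ± 0.023 on the log2 scale as a mean of 8, 24 and 48 h (adjusted p = 7.39e-28 by limma). ID3 fell by 2.605 ± 0.074 (2.82e-16) and ID2 by 1.61 ± 0.052 (1.83e-15), both genes of proteins that keep basic helix-loop-helix factors from DNA.

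Of 12 genes for G1 cyclins, CDKs and CDC25A, a list that includes targets of the INK4 and Cip/Kip proteins, 9 passed the F-test, 5 with a mean above 0 and 4 below. At 24 h 6 were higher and 0 lower, and at 48 h 1 was higher and 4 lower, which became 6 and 1 with the 4 reference genes. CCND1, the gene of cyclin D1, rose by 0.73 ± 0.038 (8 h), 1.19 ± 0.041 (24 h) and 0.31 ± 0.040 (48 h; F-test adjusted p = 2.4e-16). CDK6 rose by a mean of 0.30 ± 0.048 (adjusted p = 0.000143), while CDK4 passed (adjusted p = 0.00103) with a mean difference of only -0.04 ± 0.027. CCNE1, which encodes the cyclin partner of CDK2, was 0.64 ± 0.074 higher at 24 h and CDK2 0.47 ± 0.044 higher (F-test adjusted p = 6.53e-07 and 9.37e-08). CCNE2 was 0.625 ± 0.14 higher with TGFβ1 at 24 h and 0.85 ± 0.16 lower at 48 h (F-test adjusted p = 8e-05). CCND2 and CCND3 had means of -0.21 ± 0.043 and -0.17 ± 0.046, and both turned above 0 with the 4 reference genes.

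Of 13 pocket proteins and E2F factors, which act below these kinases, 10 passed, 4 with a mean above 0 and 6 below. E2F7, a repressor of E2F targets, rose by 0.79 ± 0.065 (8 h), 1.33 ± 0.065 (24 h) and 1.015 ± 0.065 (48 h; F-test adjusted p = 1.12e-14), and E2F3 rose by a mean of 0.22 ± 0.040 (0.000324). E2F2 fell by a mean of 0.61 ± 0.056 (1.06e-08) and E2F8, also a repressor, by 0.32 ± 0.050 (2.33e-07). Of 10 genes of CDK1 and mitotic entry 8 passed, 3 above and 5 below 0 in the mean. CDK1 itself, the kinase RGCC associates with, did not pass (mean difference 0.009 ± 0.042, adjusted p = 0.0186). PLK1 was 0.49 ± 0.062 lower with TGFβ1 at 24 h and 0.25 ± 0.069 higher at 48 h (F-test adjusted p = 1.79e-06). Its mean difference of -0.12 ± 0.037 became 0.14 with the reference genes. The phosphatase gene CDC25B was lower with TGFβ1 by a mean of 0.48 ± 0.037 (1.65e-09). WEE1, whose kinase holds CDK1 back, was higher by 0.26 ± 0.039 (0.000118), and FOXM1 by 0.115 ± 0.023 (3.2e-05). Of 11 proliferation markers 10 passed, 2 above and 8 below 0 in the mean, with 7 lower and 0 higher at 8 h, 3 higher and 2 lower at 24 h and 3 higher and 5 lower at 48 h. With the 4 reference genes these counts became 3 lower and 0 higher at 8 h, 7 higher and 0 lower at 24 h and 5 higher and 3 lower at 48 h. RRM2 and TYMS, genes of nucleotide synthesis, were lower with TGFβ1 by means of 0.58 ± 0.028 (1.13e-12) and 0.31 ± 0.028 (4.15e-09). BIRC5, the gene of survivin, was higher by 0.20 ± 0.030 (6.46e-08). In both arms the mean TPM of PLK1, FOXM1 and BIRC5 was lower at 48 h than at 0 h.

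Of 21 MYC target genes of ribosome biogenesis and metabolism, 15 passed the F-test, 2 above and 13 below 0 in the mean. At 8 h 1 was higher and 0 lower and at 24 h 2 were higher and 1 lower, which became 17 higher and 0 lower with the 4 reference genes. At 48 h 13 were lower and 0 higher, with a median log2 difference of -0.31 beside -0.013 over all genes, which became 3 higher and 3 lower with a median of 0.04 beside 0.336 with the reference genes. ODC1, the entry enzyme of polyamine synthesis, fell by 0.63 ± 0.055 at 48 h (F-test adjusted p = 2.63e-08). RRP12 and CAD rose by means of 0.21 ± 0.051 (0.000135) and 0.17 ± 0.047 (0.00333). Of 13 partners and antagonists of MYC 7 passed, 2 above and 5 below 0. MAX, the obligate partner of MYC, did not pass (mean -0.02 ± 0.025, adjusted p = 0.0679). MLXIPL, a factor of the same network that responds to glucose, fell by 3.445 ± 0.12 at 48 h (F-test adjusted p = 2.79e-15). At that time it averaged 15.6 TPM in untreated and 1.39 TPM in treated cells. Its relative MLXIP rose by a mean of 0.67 ± 0.039 (4.91e-11). MYCN was lower with TGFβ1 by 1.98 ± 0.22 at 48 h (1.88e-07), at a mean of only 1.02 TPM untreated and 0.255 TPM treated. At 0 h its means were 0.00414 TPM untreated and 0.0076 TPM treated. MXD4 was higher with TGFβ1 by 0.68 ± 0.12 at 48 h (0.000558).

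Of 18 p53 targets other than CDKN1A, 8 passed, 6 above and 2 below 0 in the mean. SESN2 and TP53I3, both stress genes, rose by means of 0.85 ± 0.054 (1.19e-10) and 0.775 ± 0.044 (1.2e-11), and FAS and GADD45A fell by 0.71 ± 0.10 (5.8e-05) and 0.36 ± 0.032 (2.05e-12). Of 13 factors known at the CDKN1A and CDKN2B promoters 8 passed, 5 above and 3 below 0. KLF4 rose by a mean of 0.40 ± 0.033 (5.01e-09) and SMAD4 by 0.24 ± 0.031 (1.14e-05), FOXO1 fell by 0.73 ± 0.047 (1.16e-10), and FOXO3 had a mean of -0.13 ± 0.027 that turned to 0.13 with the 4 reference genes. Of 12 parts of ubiquitin ligases that turn over CDK inhibitors and MYC 2 passed. They are CKS1B (0.000163), -0.225 ± 0.045 at 8 h and 0.17 ± 0.046 at 24 h, and DTL (1.42e-08), which rose by 0.65 ± 0.067 at 24 h and fell by 0.55 ± 0.074 at 48 h. SKP2, which marks p27 for destruction, did not pass (mean 0.05 ± 0.033, adjusted p = 0.165).

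Of the 7 tested neighbours of the INK4 and CDKN1C loci 3 passed, and all 3 lie on the CDKN1C side on chromosome 11. IGF2, the imprinted growth factor gene, was higher with TGFβ1 by 1.28 ± 0.10 (8 h), 1.57 ± 0.10 (24 h) and 2.10 ± 0.10 (48 h; F-test adjusted p = 1.36e-14). It averaged 10.6 TPM in untreated 0 h cells and 44.6 TPM in treated 48 h cells, groups that differ in time as well as treatment. It overlaps the readthrough gene INS-IGF2, so the division of reads between them is uncertain. KCNQ1, a potassium channel gene, fell by a mean of 0.90 ± 0.13 (1.15e-05) at levels below 1 TPM, and the transporter gene SLC22A18 by 0.35 ± 0.061 (0.000111). NAP1L4 (mean -0.02 ± 0.038, adjusted p = 0.209) and PHLDA2 (0.08 ± 0.31, adjusted p = 0.406) did not pass. H19 and KCNQ1OT1 were not analysed here.

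**Figure D5:**
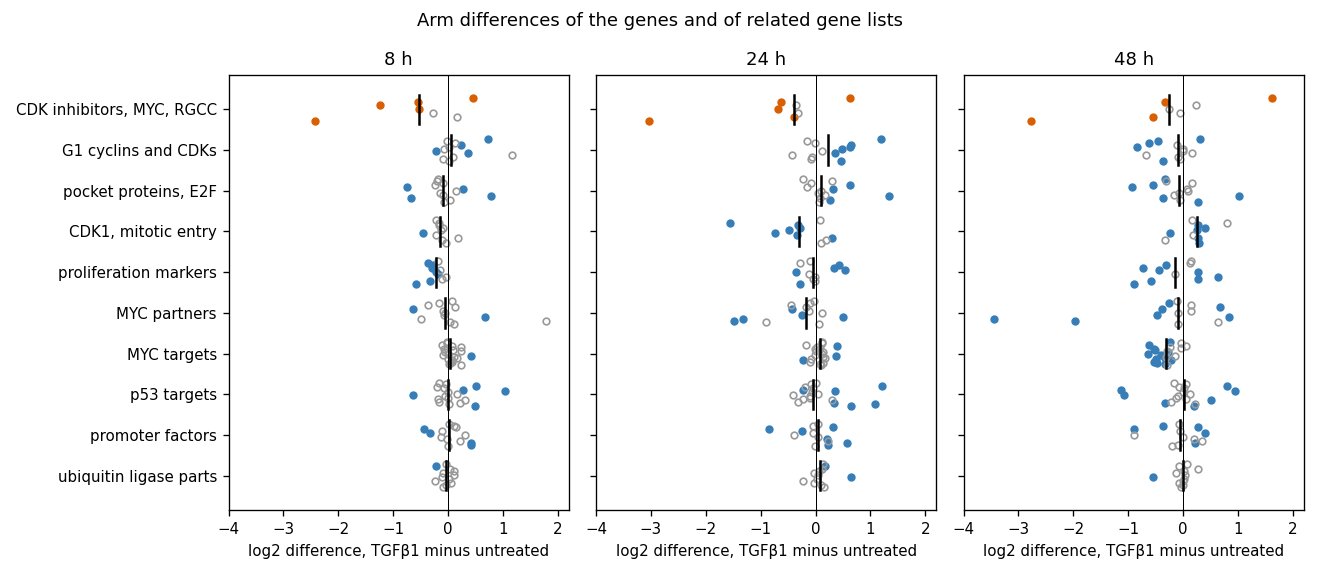
Log2 difference of TGFβ1-treated minus untreated libraries (horizontal axes) at 8, 24 and 48 h for the 7 tested members (top row) and for 9 lists of related genes. Each point is a gene, filled where its adjusted p was below 0.01 and open otherwise, and black bars are medians. The median of the members moved from -0.52 to -0.26 and that of the MYC targets from 0.03 to -0.31 between 8 and 48 h, and the 48 h medians became 0.09 and 0.04 with the 4 reference genes.

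For each of the 5 members whose group means spanned at least 1 on the log2 scale, the genes with the most similar course over the 24 libraries were found by the root mean square difference of centred log2 CPM. TMCC2 (0.226), E2F7 (0.316) and PITPNC1 (0.318) followed CDKN1A most closely. CLDND1 (0.103), AXIN2 (0.159) and GNAI1 (0.161) were closest to CDKN1B. PSRC1 (0.151), CDCA3 (0.156) and CRABP2 (0.161) were closest to CDKN2C, and TSPOAP1 (0.363), ADAMTS13 (0.365) and EFNB3 (0.368) to CDKN1C. The nearest genes to RGCC were AOAH (0.427), IL6R (0.466) and SSTR1 (0.526), less near than for the other members. All 24 points of such a comparison share the libraries, and the measure says nothing of shared control.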

How the data were processed

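RNA-Seq of SK-MES-1 cells was described from 24 tables, with 3 libraries per arm and time. Illumina reads were quantified by the authors on GRCh38 (Ensembl release 79) with kallisto 0.43.0, named in the study's methods and the submitters' processing notes. Each deposited table lists 173259 transcripts. Its estimated counts, as the authors deposited them, assign reads to transcripts by likelihood and are neither whole nor normalized. The TPM values that the authors deposited are these counts corrected for effective length and scaled to a common total. Replicates were not pooled, and strand handling was not given in the sources used here. The lengths in the tables were used only to name transcript forms.

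Transcripts were assigned to genes with GENCODE release 44, which matched 155518 of them, and the 17741 others were left out of genes. Estimated counts and TPM were summed per gene. Sums were rounded, and the 17413 genes that reached 10 counts in 3 or more libraries were tested with limma 3.58.1 in R 4.3.3 (voom, TMM scaling, a mean for each of the 8 groups). Calls are at an adjusted p of 0.01 (Benjamini-Hochberg over all genes), and the F-test takes the arm differences at 8, 24 and 48 h together. Tests are two-sided. The replicates are called biological by the submitters, and their separate cultures are not described further. Both fits were tested on simulated data. Transcript shares were tested with voom and diffSplice over 77448 features, 61 of them merged because their values were identical. No 2 libraries of a group agreed within sampling noise. RefSeq sequences came from a promoter table of GRCh38.p14.

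The members and the gene lists were chosen with earlier results of these data known. Named in the text are all members, their forms with at least 10% of the gene in some group, and from each list at most the 2 called genes with the largest positive and the 2 with the largest negative mean difference, the binding partners of the members and the locus neighbours. Marker genes were named to describe their lists, and some genes of the lists are not reported here. Alternatives covered edgeR 4.0.16, DESeq2 1.42.0, other scalings, filters at 1 and 50 counts, log2(TPM + 1) and log2(TPM + 0.1), the replicate block, the compared groups alone, the change from 0 h, a threshold of 0.05 and each library left out.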

Additional observations from a re-analysis of the deposited data

Results flagged for a closer look

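In 7 values the difference between the arms was not the same at 2 time points, by an interaction term of the limma fit with an adjusted p below 0.01. From 0 to 8 h the log2 difference between the arms changed by 0.51 ± 0.085 (SE) for CDKN1A, -0.54 ± 0.054 for CDKN1B, -0.515 ± 0.096 for CDKN2C and -2.47 ± 0.11 for RGCC, so that CDKN1A parted upwards and the other 3 downwards. From 24 to 48 h it changed by 0.99 ± 0.088 for CDKN1A, 0.295 ± 0.054 for CDKN1B and 0.43 ± 0.11 for CDKN2C. For CDKN1A this was a widening, and for CDKN1B and CDKN2C a narrowing of a difference below 0. The adjusted p of CDKN2C from 24 to 48 h, 0.00987, lies next to the threshold of 0.01. The call was lost when any 1 of 20 libraries was left out, with adjusted p values of 0.0112 to 0.0306 and log2 changes of 0.354 to 0.456, and it was kept without replicate 2 of untreated 24 h, replicate 1 or 2 of treated 0 h or replicate 1 of treated 24 h. The members were chosen on the arm differences from which these terms are made, so the 7 values are descriptions. No sample was set apart by the rule for outlying samples, which does not apply to groups of 3.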

How the results depend on the processing

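Scaling to the 4 reference genes changed the most. It moved the median of all genes at 48 h from -0.013 to 0.336 on the log2 scale and turned the difference of CDKN1B at 48 h to 0.014, and the changes from 0 h to 48 h in treated cells to 0.369 for CDKN1A, 0.169 for CDKN2D and 0.299 for MYC. The mean differences of CCND2, CCND3, PLK1, NOP56 and FOXO3 became 0.051, 0.097, 0.142, 0.06 and 0.131. The F-test then called 11185 genes, against 7412 with TMM, and 4359 when differences were taken as changes from 0 h. The share above 0 was 31.5% with library totals and 87.7% with reference genes, against 49.3%. The cause was not tested.

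Over the counts of members and pathway genes, 189 of 190 alternatives and 358 of 360 fits without 1 library stayed within 1.5 times the value given. The exceptions concern treated cells at 48 h against 0 h, where 4 members were called instead of 7 with the compared groups alone, a fit on fewer samples. Without 1 library this count ranged from 4 to 7, and it was 4 without replicate 1 of treated 0 h or replicate 3 of treated 48 h. Leaving out a library gave 4 to 5 members at 8 h, 5 to 6 at 24 h, 4 to 5 at 48 h, 5 to 7 in the F-test and 82 to 94 pathway genes. These tallies compare the sizes of counts, not which genes are in them. With the 4 reference genes, CDKN1B and MYC were no longer called between the arms at 48 h, and CDKN2D was called higher.

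Replicate numbers paired the libraries weakly and not at every time, and the main fit used no pairing. Of 12 same-numbered pairs 4 had correlated deviations above 0.1 (range -0.062 to 0.255), namely replicates 1 and 2 at 0 and 24 h. Of 12 untreated libraries 6 correlated best with their own number, all 3 at 0 h among them and none at 8 h. The F-test called 8092 genes with the replicate block, against 7412 without it. With the replicate block, 0 members were called at 0 h, 5 at 8 h, 6 at 24 h, 5 at 48 h, 7 in the F-test, 4 from 0 to 8 h and 3 from 24 to 48 h. The block gave 94 pathway genes and 0 transcript forms, and against 0 h 4, 5 and 6 members in untreated and 4, 6 and 7 in treated cells. Counting depth limits what can be said of CDKN2A and CDKN2B.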
